A study of Mus musculus with 9 samples.

Results

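The proteasome is the protease complex that degrades ubiquitin-tagged proteins in the cytosol and nucleus, and its subunit genes were followed here in RNA bound to RIG-I in B16F10 cells, a mouse melanoma line. The members were the protein-coding genes whose symbol starts with Psma, Psmb, Psmc, Psmd, Psme or Psmf followed by a number. Psmb8, Psmb9, Psmb10 and Psmb11 were left out of them. These were 42 of the 22396 genes counted, and 41 had enough counts to be tested. All cells, controls included, stably expressed FLAG-tagged RIG-I, a cytosolic sensor of RNA. A control hairpin (shCtr, labelled wild type) was compared with a pair of hairpins that target Osgep (shOSGEP#1 and shOSGEP#2, labelled as knockdown), with 3 replicates in each group, which the study describes as independent experiments. RNA was recovered with anti-FLAG beads, depleted of ribosomal RNA and sequenced (RIP-seq). OSGEP is the enzyme within KEOPS, the complex that places the t6A modification on tRNAs that read codons starting with A.

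The core particle of the proteasome is a barrel in which outer rings of alpha subunits (Psma genes) close the entry and inner rings of beta subunits (Psmb genes) hold the proteolytic sites. A regulatory particle caps the barrel. The ATPases of its base (Psmc genes) unfold the substrate, other base subunits and the lid (Psmd genes) bind and remove ubiquitin, and dedicated chaperones help to assemble the base. Other caps (Psme genes) activate the core particle without ubiquitin, and Psmf1 encodes an inhibitor. Most of these genes are expressed in nearly all cell types.

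Osgep itself was measured first, as a check of the labels. It had 771, 949 and 649 counts in shCtr, 130, 58 and 47 in shOSGEP#1 and 2 and 43 in shOSGEP#2 replicates 1 and 3. All shOSGEP libraries were below all shCtr libraries, at 18.2 ± 2.32 counts per 1000000 counts of the library (CPM; mean ± SD, n = 3) in shCtr, 2.15 ± 1.41 CPM (n = 3) in shOSGEP#1 and 1.48 ± 1.98 CPM (n = 2) in shOSGEP#2. For both shRNAs together the log2 fold change was -3.47 ± 0.64 (SE; edgeR, adjusted p = 0.00406). For single shRNAs the edgeR adjusted p was 0.0128 for shOSGEP#1 and 0.015 for shOSGEP#2. Both were above 0.01, the threshold that the study's methods set for DESeq2 and that was used here for edgeR. The libraries held 40333037, 47750758 and 41805753 counts in shCtr, 34551436, 50224299 and 30697653 in shOSGEP#1, and 25460689, 568995 and 14914731 in shOSGEP#2. The shallow shOSGEP#2 replicate 2 had 81.3% of all genes at 0. It stood apart and was kept out of the fit of 8 libraries, and unless it is named, values for shOSGEP#2 come from replicates 1 and 3. Each value is relative to all RNA that came down with RIG-I, so less RNA of a gene in the cell and less of it bound to RIG-I cannot be told apart, nor can fewer cells of a kind and less RNA per cell.

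Melanocyte lineage markers were abundant in these libraries. Summed over Tyr, Tyrp1, Dct, Pmel, Mlana, Mitf and Sox10 they came to 6336, 6039 and 8473 CPM in shCtr, 6288, 7565 and 6839.9 CPM in shOSGEP#1 and 2617 and 3374 CPM in shOSGEP#2, and none of the 7 was at 0 in any of these libraries. In the shallow library Tyr and Mitf were at 0 and the sum was 1664 CPM. Tyrp1 was the most abundant of them, at 2298 ± 608 CPM in shCtr. In shOSGEP#2 the sum was lower than in every other library, and 5 of the 7 markers fell against shCtr (3.89% of all genes did): Dct (log2 fold change -1.997 ± 0.17), Mlana (-1.41 ± 0.21), Pmel (-2.06 ± 0.28), Sox10 (-0.99 ± 0.16) and Tyr (-3.83 ± 0.41). In shOSGEP#1 only Tyr (-2.59 ± 0.32) fell among the 7. The part of this shift in the values for shOSGEP#2 below was not tested. The 11 markers of T cells, other leukocytes, macrophages, endothelium, keratinocytes and epithelium were at or near 0. They summed to 4.98, 2.79 and 2.30 CPM in shCtr, 1.53, 1.17 and 4.30 CPM in shOSGEP#1 and 0.943 and 4.76 CPM in shOSGEP#2 and to 0 in the shallow library. The highest was the macrophage marker Cd68 with 189 counts in shCtr replicate 1, while Cd3e, Cd3g, Cd8a, Krt5 and Krt14 had no count in any shCtr library.

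Summed over the complex, the proteasome genes had a lower mean level in RIG-I-bound RNA of both depleted groups, with shCtr replicate 3 close to them. The 42 members summed to 7749, 7360.2 and 5773 CPM in shCtr, 5749, 5313 and 5819.6 CPM in shOSGEP#1 and 5306 and 5472 CPM in shOSGEP#2. Both shCtr replicates 1 and 2 lay above all shOSGEP libraries, whereas shCtr replicate 3 lay within their range. The mean sum was 6961 ± 1046 CPM (n = 3) in shCtr, 5627 ± 274 CPM (n = 3) in shOSGEP#1 and 5389 ± 118 CPM (n = 2) in shOSGEP#2. For each library, the median over the 41 tested members was also taken of log2 TMM-normalised CPM relative to the shCtr mean of each gene. This median was 0.18, 0.05 and -0.24 in shCtr replicates 1 to 3, -0.26, -0.36 and -0.28 in shOSGEP#1, and -0.41 and -0.45 in shOSGEP#2. The members thus differed together between libraries of the control group as well, and shCtr replicate 3 was separated from shOSGEP#1 replicate 1 by a smaller step than from shCtr replicate 2.

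In the comparison of both shRNAs with shCtr, 9 of the 41 tested members (22.0%) fell and none rose (edgeR quasi-likelihood test, Benjamini-Hochberg adjusted p under 0.01), against 4.27% of the 12744 genes tested that fell and 5.04% that rose. The 9 were Psma1 (ENSMUSG00000030751) and Psma5 (ENSMUSG00000068749) of the alpha ring, Psmb1 (ENSMUSG00000014769) and Psmb5 (ENSMUSG00000022193) of the beta ring, Psmd7 (ENSMUSG00000039067), Psmd11 (ENSMUSG00000017428) and Psmd14 (ENSMUSG00000026914) of the lid, the base chaperone gene Psmd5 (ENSMUSG00000026869) and the inhibitor gene Psmf1 (ENSMUSG00000032869). The median log2 fold change was -0.35 over the members and -0.04 over all genes, and the value was below 0 for 40 of the 41 members and for 53.1% of all genes. With DESeq2 or with RLE scaling 39 members were below 0, as Psmd13 turned positive, and with library totals alone 38, as Psmb7 did so too. For shOSGEP#1 alone, 3 members fell (Psmb5, Psmd5 and Psmd11; 7.32% against 4.67% of all genes), with a median of -0.33 over the members and 0.00 over all genes. For shOSGEP#2 alone, 2 members fell (Psma1 and Psmb1; 4.88% against 3.89% of all genes), with a median of -0.46 against -0.06. These single-shRNA shares were near those of all genes, and the comparisons share the shCtr libraries. All 5 shOSGEP libraries lay below all 3 shCtr libraries, after TMM normalisation, for the same 9 members and for 10.8% of all genes. Without TMM this held for 8 members, Psma1 dropping out, and for 8.99% of all genes.

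The calls depended on single libraries. For fits with a library left out, the percentages below count genes called lower at an adjusted p under 0.01. They are no background for the member counts by unadjusted p, as the matching share of all genes is not given. In the fit of 8 libraries, edgeR gave 4450, 4541 and 4443 of 12744 genes under 0.05 before adjustment for shOSGEP#1, shOSGEP#2 and both. Among the 41 members these numbers were 18, 21 and 21. For both shRNAs, no member was called by edgeR without shCtr replicate 1, without shCtr replicate 2 or without shOSGEP#1 replicate 2, with 10, 11 and 18 members at an unadjusted p under 0.05, where 1.29%, 0.878% and 2.16% of all genes were called lower. There were 5 calls without shCtr replicate 3, 3 without shOSGEP#2 replicate 1 and 2 without shOSGEP#2 replicate 3, where the share of all genes was 2.00%, 5.40% and 3.10%. The 3 calls for shOSGEP#1 went to 0 without shCtr replicate 1, shCtr replicate 2, shOSGEP#1 replicate 2 or shOSGEP#1 replicate 3, with 10, 10, 14 and 13 members at an unadjusted p under 0.05 (1.99%, 1.46%, 1.74% and 2.85% of all genes called lower). The 2 calls for shOSGEP#2 went to 0 without shCtr replicate 1, shCtr replicate 2, shOSGEP#2 replicate 1 or shOSGEP#2 replicate 3, with 13, 15, 17 and 15 such members (1.76%, 1.57%, 4.62% and 1.61% of all genes), and to 1 without shOSGEP#1 replicate 2 (2.66%). With the shallow library in the fit, edgeR called no gene at all, member or not, for both shRNAs (2 members and 817 of 12337 genes at an unadjusted p under 0.05). In that setting DESeq2 called no member (0.458% of all genes lower) and voom with sample weights called 11, the 9 above among them (26.8%, against 7.42% of all genes called lower and 16.8% called in either direction). With RLE scaling 8 were called for both shRNAs, without Psmf1, and with library totals alone 4 (Psma1, Psmb1, Psmd5 and Psmd11), against 4.15% and 3.51% of all genes called lower. With the replicate number as a block 7 were called for both shRNAs, as Psma5, Psmb5 and Psmd14 lost their call and Psma4 gained one (4.85% of all genes called lower). The median over the members stayed below 0 in each of these fits. With 8 libraries DESeq2 called 9, 9 and 10 members for shOSGEP#1, shOSGEP#2 and both, all lower (22.0%, 22.0% and 24.4%), against 9.20%, 8.53% and 8.32% of all genes called lower and 19.96%, 19.4% and 19.05% called in either direction.

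**Figure D1:**
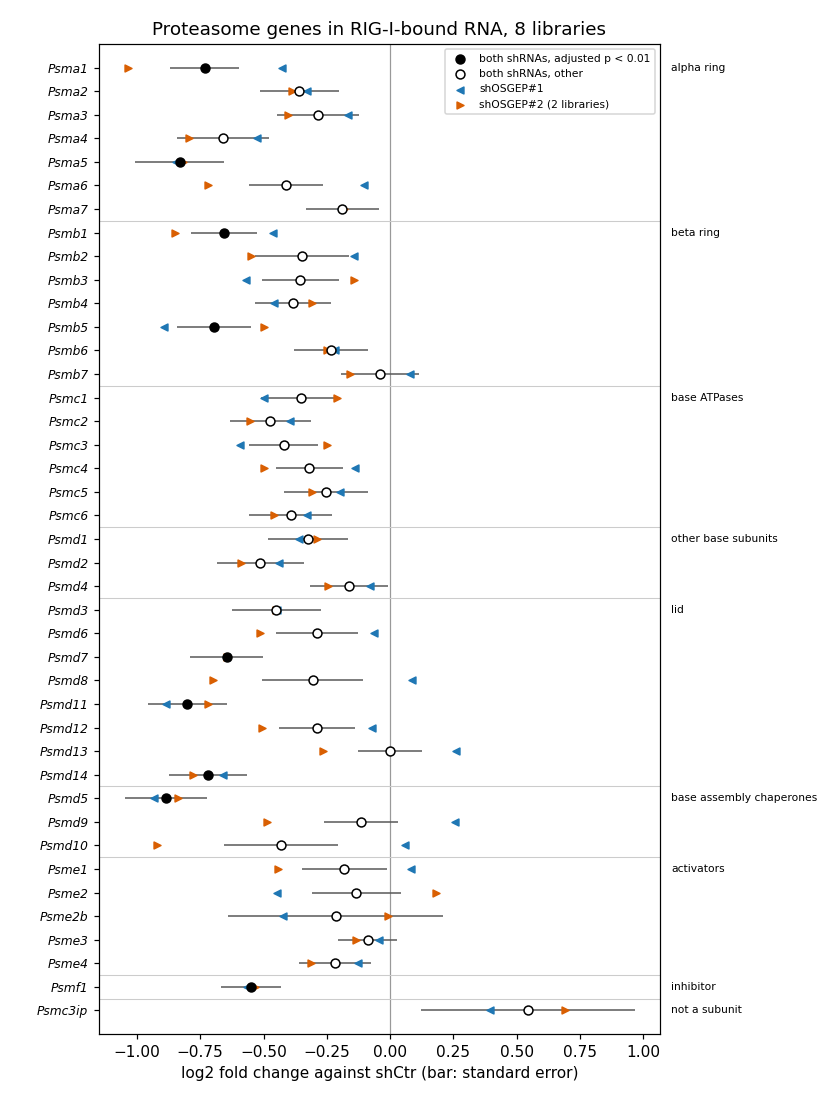
Log2 fold change of the 41 tested proteasome genes against shCtr, with genes on the vertical axis by structural group. Circles give both shRNAs together with the standard error (filled where the adjusted p was under 0.01), and triangles give shOSGEP#1 and shOSGEP#2. The circles lie at or below 0 for all genes plotted except Psmc3ip, with Psmd13 and Psmb7 nearest to 0 and positive under other scalings, and 9 circles are filled.

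The alpha ring forms the gate of the core particle. The summed level of its genes was 984 ± 164 CPM in shCtr, 793 ± 28.2 CPM in shOSGEP#1 and 710.0 ± 21.7 CPM in shOSGEP#2. Of the 7 tested, 2 fell for both shRNAs, and the median log2 fold change was -0.33 for shOSGEP#1, -0.72 for shOSGEP#2 and -0.41 for both shRNAs. Psma1 was at 194, 195 and 139 CPM in shCtr, 141, 129 and 126 CPM in shOSGEP#1 and 90.5 and 92.8 CPM in shOSGEP#2 replicates 1 and 3. Both shOSGEP#2 libraries were the lowest of the 8, while shOSGEP#1 replicate 1 was level with shCtr replicate 3. Its log2 fold change was -0.73 ± 0.14 for both shRNAs (adjusted p = 0.00417, 1.66-fold lower), -0.43 ± 0.15 for shOSGEP#1 (adjusted p = 0.069) and -1.04 ± 0.18 for shOSGEP#2 (adjusted p = 0.00242). Psma5 was at 75.6, 105 and 67.4 CPM in shCtr, 49.7, 43.9 and 45.7 CPM in shOSGEP#1 and 40.2 and 60.5 CPM in shOSGEP#2. All shOSGEP libraries lay below the lowest shCtr library, replicate 3, and the shRNAs gave close values, -0.85 ± 0.20 (adjusted p = 0.0122) and -0.82 ± 0.23 (adjusted p = 0.0265), with -0.83 ± 0.18 for both (adjusted p = 0.00752). The call for both was lost with the replicate number as a block, at a log2 fold change of -0.78.

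Psma3 had a mean CPM in shCtr level with that of Psma1. It was at 203, 186 and 142 CPM in shCtr, 155, 168 and 154 CPM in shOSGEP#1 and 168 and 117 CPM in shOSGEP#2, and its groups overlapped, with a log2 fold change of -0.28 ± 0.16 for both shRNAs (adjusted p = 0.241). Psma4 (-0.66 ± 0.18, adjusted p = 0.0246) and Psma6 (-0.41 ± 0.15, adjusted p = 0.0669) came next after the called genes, and the values were -0.36 ± 0.16 for Psma2 and -0.19 ± 0.14 for Psma7. The last alpha gene, Psma8, encodes an alpha subunit of the testis and had no count in any of the 9 libraries, which allows up to 0.201 CPM in the shallowest of the 8 libraries and 5.27 CPM in shOSGEP#2 replicate 2. It was not tested.

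Among the 7 beta ring genes, Psmb1 and Psmb5 fell for both shRNAs, and the sum over the ring was 1115 ± 143 CPM in shCtr, 848 ± 48.0 CPM in shOSGEP#1 and 912 ± 1.14 CPM in shOSGEP#2. The median log2 fold change was -0.46 for shOSGEP#1, -0.31 for shOSGEP#2 and -0.36 for both shRNAs. Psmb5 encodes the subunit with chymotrypsin-like activity, the site that bortezomib binds. It was at 185, 209 and 189.6 CPM in shCtr, 124, 106 and 86.0 CPM in shOSGEP#1 and 128 and 167 CPM in shOSGEP#2. All shOSGEP libraries were below all shCtr libraries, and shOSGEP#1 was the lower of the depleted groups. The log2 fold change was -0.89 ± 0.16 for shOSGEP#1 (adjusted p = 0.00371), -0.50 ± 0.18 for shOSGEP#2 (adjusted p = 0.0786) and -0.70 ± 0.14 for both (adjusted p = 0.007), and the difference between the shRNAs was 0.40 ± 0.18 (adjusted p = 0.137). With the replicate number as a block Psmb5 lost its call for both, at a log2 fold change of -0.68. Psmb1, a structural beta subunit without a proteolytic site and the beta gene with the highest mean CPM in shCtr, was at 232, 211 and 169 CPM in shCtr, 155, 153 and 139 CPM in shOSGEP#1 and 121 and 120.3 CPM in shOSGEP#2. Here shOSGEP#2 was the lower group, with log2 fold changes of -0.46 ± 0.15 (adjusted p = 0.0425) for shOSGEP#1, -0.85 ± 0.17 (adjusted p = 0.00503) for shOSGEP#2 and -0.66 ± 0.13 (adjusted p = 0.00538) for both.

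The remaining catalytic genes did not pass the test. Psmb6, which encodes the caspase-like subunit, was at 193, 181 and 156 CPM in shCtr, 161, 125 and 173 CPM in shOSGEP#1 and 138 and 179.6 CPM in shOSGEP#2, and Psmb7, which encodes the trypsin-like subunit, was at 149.6, 117 and 101 CPM in shCtr, 129, 129 and 133 CPM in shOSGEP#1 and 132 and 102 CPM in shOSGEP#2. For both genes the groups overlapped, with log2 fold changes for both shRNAs of -0.23 ± 0.15 (adjusted p = 0.289) for Psmb6 and -0.04 ± 0.15 (adjusted p = 0.88) for Psmb7, the latter turning positive (0.011) when libraries were scaled by their totals alone. The 3 catalytic subunits occupy the same ring, yet their values ran from -0.70 to -0.04, a difference between genes that was not itself tested. Psmb2 (-0.35 ± 0.19), Psmb3 (-0.36 ± 0.15) and Psmb4 (-0.38 ± 0.15), all structural, lay between them. Processed pseudogenes are annotated for Psmb5, Psmb6 and Psmb7, 4 in all. The study names Salmon for the counts, and beyond that the sources used here do not describe how reads shared with such copies were assigned.

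No gene of the base of the regulatory particle passed the test for both shRNAs, by edgeR or by DESeq2, though all values were below 0. Its 6 ATPase genes summed to 1161 ± 206 CPM in shCtr, 918 ± 57.4 CPM in shOSGEP#1 and 959 ± 28.5 CPM in shOSGEP#2, and their log2 fold changes for both shRNAs ran from -0.47 to -0.25, with a median of -0.37. At an unadjusted p under 0.05 there were 5 of the 6 and 1 of the 3 other base genes, against 4443 of all 12744 genes tested. The smallest adjusted p was 0.0488, for Psmc3 (-0.42 ± 0.14). Psmc5, the ATPase gene with the highest mean CPM in shCtr, was at 287, 221 and 177 CPM in shCtr, 208, 171 and 225 CPM in shOSGEP#1 and 198 and 195 CPM in shOSGEP#2, with overlapping groups and a log2 fold change of -0.25 ± 0.16 (adjusted p = 0.305). Psmc1 (-0.35 ± 0.16), Psmc2 (-0.47 ± 0.16), Psmc4 (-0.32 ± 0.13) and Psmc6 (-0.39 ± 0.16) did not pass either. With all 9 libraries, voom with sample weights called the base genes Psmc2 and Psmd2 lower for both shRNAs, where 7.42% of all genes were called lower. Of the non-ATPase base genes, Psmd2 encodes a large scaffold that docks ubiquitin receptors. It was at 605, 607 and 438 CPM in shCtr, 466, 419 and 344 CPM in shOSGEP#1 and 452 and 325 CPM in shOSGEP#2, the highest mean CPM of any member in shCtr. In shCtr replicate 3 it was below the highest shOSGEP libraries, and its log2 fold change was -0.51 ± 0.17 (adjusted p = 0.0557). The values were -0.33 ± 0.16 for Psmd1, the other large scaffold, and -0.16 ± 0.16 for Psmd4, a ubiquitin receptor.

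Of the 8 lid genes, 3 fell for both shRNAs, where 4.27% of all genes did. The groups differ in size, and their numbers of calls were not compared. Psmd14 encodes the deubiquitinase that cuts ubiquitin chains from the substrate and was at 181, 194 and 138 CPM in shCtr, 99.3, 99.5 and 128 CPM in shOSGEP#1 and 94.0 and 119 CPM in shOSGEP#2. All shOSGEP libraries lay below all shCtr libraries, with a log2 fold change of -0.72 ± 0.15 for both shRNAs (adjusted p = 0.0079), -0.66 ± 0.17 for shOSGEP#1 and -0.78 ± 0.20 for shOSGEP#2. Its call for both was lost with the replicate number as a block, at a log2 fold change of -0.72. Psmd7, the partner with which Psmd14 forms a dimer, was at 131, 119 and 97.4 CPM in shCtr, 84.3, 68.2 and 71.1 CPM in shOSGEP#1 and 85.7 and 72.1 CPM in shOSGEP#2. The groups did not overlap, and the log2 fold change was -0.65 ± 0.14 (adjusted p = 0.0093), with -0.65 ± 0.16 and -0.64 ± 0.18 for the single shRNAs. With library totals alone, Psmd7 and Psmd14 both lost their call for both shRNAs. Psmd11, a scaffold subunit of the lid, was at 492, 515 and 326 CPM in shCtr, 256, 231 and 241 CPM in shOSGEP#1 and 293 and 283 CPM in shOSGEP#2. It was the most abundant of the 9 called genes by CPM, was 1.74-fold lower for both shRNAs (log2 fold change -0.80 ± 0.16, adjusted p = 0.00505) and fell under shOSGEP#1 (-0.89 ± 0.18, adjusted p = 0.00573), with -0.72 ± 0.20 under shOSGEP#2 (adjusted p = 0.0271).

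No other lid gene passed the test for both shRNAs. Psmd8, the lid gene with the highest mean CPM in shCtr, was at 488, 499 and 429 CPM in shCtr, 443, 397 and 677 CPM in shOSGEP#1 and 239.5 and 383 CPM in shOSGEP#2. Its shOSGEP#1 replicate 3 was the highest of the 8 libraries and shOSGEP#2 replicate 1 the lowest, so that the log2 fold change was 0.09 ± 0.22 for shOSGEP#1 and -0.70 ± 0.25 for shOSGEP#2 (adjusted p = 0.818 and 0.0715). Psmd13 had 0.26 ± 0.14 for shOSGEP#1 and -0.27 ± 0.16 for shOSGEP#2, which left a value for both of -0.0021 ± 0.13. Psmd3 (-0.45 ± 0.18), Psmd6 (-0.29 ± 0.16) and Psmd12 (-0.29 ± 0.15) did not pass the test. The lid summed to 1799 ± 279 CPM in shCtr, 1470.2 ± 201 CPM in shOSGEP#1 and 1256 ± 80.8 CPM in shOSGEP#2.

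Psmd5, Psmd9 and Psmd10 carry subunit symbols but encode chaperones that leave the base once it is assembled. Psmd5 was at 99.4, 113 and 75.8 CPM in shCtr, 61.3, 46.0 and 45.1 CPM in shOSGEP#1 and 60.4 and 54.0 CPM in shOSGEP#2. All shOSGEP libraries lay below all shCtr libraries, and its log2 fold change of -0.89 ± 0.16 for both shRNAs (adjusted p = 0.00402, 1.85-fold lower) was the lowest of the 41 members in that comparison. The single shRNAs gave -0.93 ± 0.19 (adjusted p = 0.00564) and -0.84 ± 0.21 (adjusted p = 0.0177). Psmd9 and Psmd10 did not follow it under shOSGEP#1, with values of 0.25 ± 0.16 and 0.06 ± 0.25, and had -0.49 ± 0.19 and -0.92 ± 0.29 under shOSGEP#2, none past the threshold.

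The median log2 fold change of the activator genes was -0.18 for both shRNAs, closer to 0 than the medians of the core, base and lid genes, a difference between groups that was not tested. Their sum was 655 ± 59.7 CPM in shCtr, 629 ± 31.0 CPM in shOSGEP#1 and 605 ± 24.3 CPM in shOSGEP#2. None of the 5 passed the test for both shRNAs, and the values ran from -0.22 to -0.09. By edgeR 0 had an unadjusted p under 0.05, against 4443 of all 12744 genes, and DESeq2 called 0, against 19.05% of all genes. Psme3, which encodes the nuclear PA28 gamma cap and had the highest CPM of the group, was at 344, 323 and 311 CPM in shCtr, 308, 308 and 342 CPM in shOSGEP#1 and 315 and 320.3 CPM in shOSGEP#2. The groups overlapped and the log2 fold change was -0.09 ± 0.12 (adjusted p = 0.635). Psme1 (-0.18 ± 0.17) and Psme2 (-0.13 ± 0.18), which encode the interferon-inducible PA28 alpha and beta subunits, and Psme4 (-0.22 ± 0.14), which encodes PA200, did not pass either. Psme2b, a copy of Psme2, had 120, 110 and 88 counts in shCtr, 59, 95 and 60 in shOSGEP#1 and 82 and 29 in shOSGEP#2, and its value (-0.22 ± 0.42) is uncertain because reads could be split between the copies. A difference between the activators and the inhibitor was not tested. The inhibitor gene Psmf1 fell, a call lost with RLE scaling (-0.53) and with library totals alone (-0.50). Psmf1 was at 136, 129 and 126 CPM in shCtr, 90.3, 78.0 and 97.7 CPM in shOSGEP#1 and 94.0 and 98.1 CPM in shOSGEP#2, with narrow shCtr values that all lay above the shOSGEP libraries, and its log2 fold change was -0.55 ± 0.12 for both shRNAs (adjusted p = 0.00837), -0.57 ± 0.13 for shOSGEP#1 and -0.53 ± 0.15 for shOSGEP#2.

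Psmc3ip meets the rule by its symbol but encodes a cofactor of meiotic recombination. It had 135, 114 and 150 counts in shCtr, 172, 243 and 78 in shOSGEP#1 and 71 and 121 in shOSGEP#2, and it was the only tested member with a positive value for both shRNAs (0.54 ± 0.42, adjusted p = 0.394).

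**Figure D2:**
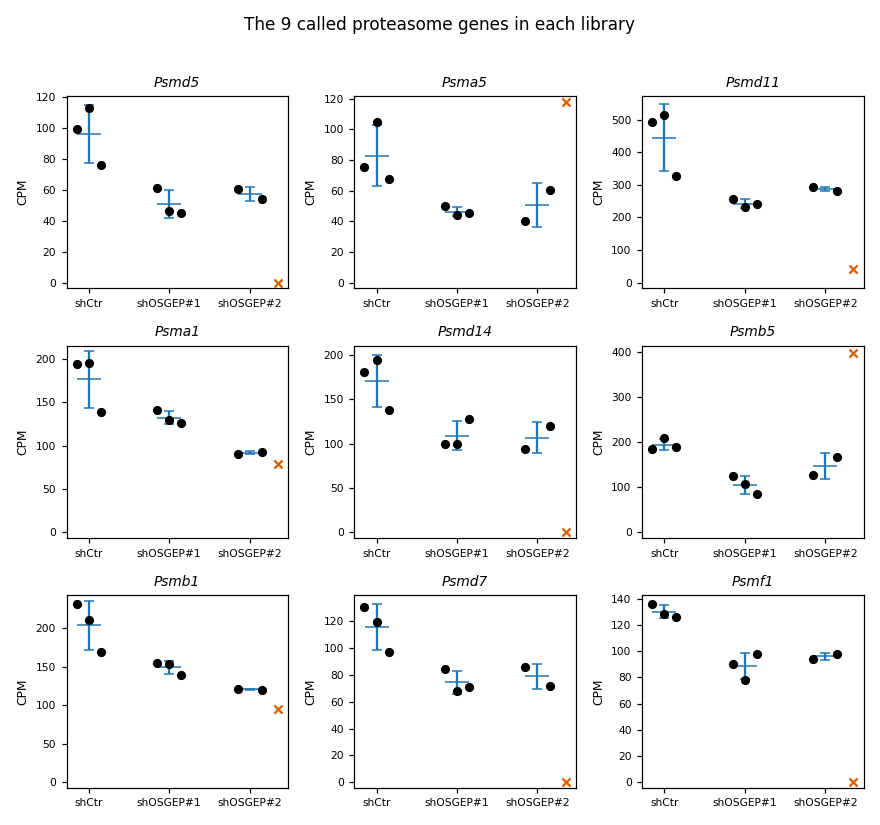
CPM of the 9 proteasome genes that fell for both shRNAs, 1 panel per gene, with CPM on the vertical axis and the groups on the horizontal axis. Points are libraries, blue bars are the mean ± SD (n = 3, 3 and 2), and the cross is the shallow shOSGEP#2 replicate 2. In all panels except Psma1 the shCtr points lie above the shOSGEP points, while the crosses range from 0 to 399 CPM.

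The shRNAs did not differ from each other in any member past the threshold (edgeR, 0 of 41), against 10.8% of all genes. At an unadjusted p under 0.05 there were 12 of the 41 members and 4722 of the 12744 genes tested. DESeq2 called 3 members, Psma1, Psmd9 and Psmd10 (7.32%), all lower, against 10.1% of all genes called lower and 20.9% in either direction. With the replicate number as a block, edgeR called 1 member, Psmd10 (2.44%), against 4.79% of all genes called lower and 10.9% in either direction. The median difference of shOSGEP#2 from shOSGEP#1 was -0.12 over the members and -0.04 over all genes. The smallest adjusted p belonged to the chaperone genes Psmd9 (-0.74 ± 0.19, adjusted p = 0.0164) and Psmd10 (-0.98 ± 0.29, adjusted p = 0.0341) and to Psma1 (-0.61 ± 0.18, adjusted p = 0.0291). Psma1 and Psmb5 were called under different shRNAs, but by edgeR neither differed between them past the threshold.

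Levels between genes were compared per length, as counts per kilobase of a transcript scaled to the same total in each library (as TPM are). The transcript was the longest coding one of the best annotation rank, and which transcript the cells used was not measured. Its length was 2911 bases for Psma2, 4397 for Psmd5 and 914 for Psma7, so the order of genes depends on this choice. In shCtr the genes of the core particle, base and lid spanned from 113 ± 18.0 (SD, n = 3) for Psma2 and 116 ± 20.5 for Psmd6 to 714 ± 66.6 for Psmd8. Psmb3 (557 ± 91.1), Psmb6 (515 ± 58.4) and Psmb5 (504 ± 41.0) followed Psmd8 and differed from each other by less than the SD of Psmb3, and the levels were close for Psma7 (441 ± 71.1), Psmd2 (433 ± 80.5) and Psmc5 (404 ± 97.8). The levels of Psma2 and Psmd8 differed by more than their spread. By this measure the base chaperone genes were lower, at 51.0 ± 10.8 for Psmd5, 41.8 ± 2.77 for Psmd9 and 39.9 ± 5.54 for Psmd10. By mean CPM in shCtr, Psma2 (141) was above Psma5 (82.7), and Psmd5 (96.1) was above Psma5, Psmb2 (74.1) and Psmd6 (68.9). Psmf1 stood at 79.6 ± 3.22. Psme2b (6.85 ± 1.24) and Psmc3ip (5.59 ± 1.06) were the lowest of the tested members.

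In the shallow shOSGEP#2 replicate 2, the 42 members had 1984 counts together, where the shares in the other shOSGEP#2 libraries would give 3066. They were spread unevenly, with 23 members at 0 and 19 above 0. Of those at 0, 21 would have had more than 3 counts at the level of the other shOSGEP#2 libraries, up to 177 for Psmd8. In turn Psmc5 alone had 635 counts (1116 CPM), against 197 ± 2.05 CPM in the other shOSGEP#2 libraries, and Psmb5 had 227 (399 CPM). Among the 9 called genes, Psmd5, Psmd7, Psmd14 and Psmf1 were at 0 there, Psma1, Psmb1 and Psmd11 were below all shCtr libraries, and Psma5 and Psmb5 were above them. A count of 0 in this library allows up to 5.27 CPM, from counting error only.

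Features that the rule did not use were then compared. The members lie on 16 chromosomes, 10 of them on chromosome 11 (GENCODE annotation of GRCm38, matched by identifier). Since t6A lies on tRNAs that decode codons starting with A, the share of such codons was computed. Its median was 28.3% over the 41 tested members and 26.8% over 12639 tested genes with a coding sequence, and 27.3% over the 9 called genes. Across the 41 members, which share libraries and differ in length, its Pearson correlation with the log2 fold change of both shRNAs together was 0.32, and across all genes it was -0.003. Within the members, those with fewer such codons tended weakly to have the lower values, a description without a test, since genes are not independent replicates. Psmc3ip, which is not a subunit, was among them (32.4% of codons, log2 fold change 0.54), and the correlation without it was not computed. The share ranged from 21.3% to 31.25% over the 9 called genes.

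Proteasome genes are known targets of the transcription factor NRF1 (Nfe2l1), which binds antioxidant response elements. Since members moved together, promoters of RefSeq (GRCm38.p6, 250 bases before to 50 after the start) were searched for TGACNNNGC on both strands. Of the 42 members 35 had a promoter, and 6 of these (17.1%) held a match. Of all 27025 genes with a RefSeq promoter 14.0% did, so the share was near that of all promoters. The 6 were Psmb5, Psmb6, Psmc6, Psmd9, Psmd12 and Psme4, of which Psmb5 was among the 9 called genes. Psmb1 and Psmd7, also called, and the catalytic Psmb7 were not searched. The 100 bases before the start are shown for the catalytic genes Psmb5, which fell, and Psmb6, which did not pass the test, with the match in capitals. The Psmb5 stretch is chr14:54617996-54618095, minus strand, with the match starting 47 bases before the start, and the Psmb6 stretch is chr11:70525257-70525356, plus strand, with the match starting 9 bases before it. A match is a description of the letters and not of a bound site.
Psmb5: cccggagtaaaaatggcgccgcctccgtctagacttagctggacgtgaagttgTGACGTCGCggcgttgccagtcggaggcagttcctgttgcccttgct
Psmb6: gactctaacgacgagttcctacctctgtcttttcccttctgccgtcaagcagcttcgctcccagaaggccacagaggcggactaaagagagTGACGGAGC

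Genes that act with the proteasome but lie outside the rule were read from lists. For both shRNAs, 4443 of all 12744 genes had an unadjusted p under 0.05 by edgeR, and DESeq2 called 19.05% of all genes. Of 4 genes of the NRF1 pathway, none passed the test for both shRNAs (1 at an unadjusted p under 0.05 by edgeR, and 0 called by DESeq2). Nfe2l1 itself was at 277, 216 and 159.6 CPM in shCtr, 182, 217 and 147 CPM in shOSGEP#1 and 719.5 and 433 CPM in shOSGEP#2. Both shOSGEP#2 libraries were above all others, and it rose under shOSGEP#2 (1.32 ± 0.27, adjusted p = 0.0066) with -0.27 ± 0.25 under shOSGEP#1, a difference between the shRNAs that passed the test (1.59 ± 0.27, adjusted p = 0.00207). Nfe2l2, which encodes the related factor NRF2, was at 133, 126 and 129 CPM in shCtr, 179, 169 and 222 CPM in shOSGEP#1 and 125 and 98.0 CPM in shOSGEP#2 and differed the other way (-0.85 ± 0.18, adjusted p = 0.00712). Ddi2 and Ngly1, whose products process NRF1, had values for both shRNAs of -0.13 ± 0.14 and -0.05 ± 0.18.

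The 2 subunits of the regulatory particle without a Psm symbol did not pass the test for both shRNAs (edgeR; both had an unadjusted p under 0.05, and DESeq2 called Adrm1). Adrm1, a ubiquitin receptor of the base, was at 346, 324 and 249 CPM in shCtr, 219, 196 and 224 CPM in shOSGEP#1 and 196 and 223 CPM in shOSGEP#2. All shOSGEP libraries were below all shCtr libraries, but the adjusted p was 0.0117 (log2 fold change -0.59 ± 0.14). Sem1, the small lid subunit, was at 86.1, 89.3 and 115 CPM in shCtr, 116, 71.2 and 191 CPM in shOSGEP#1 and 154 and 354 CPM in shOSGEP#2 (0.83 ± 0.32, adjusted p = 0.0908), with shOSGEP#1 on both sides of the shCtr range and both shOSGEP#2 libraries above it. Its 3067 counts in the shallow library were 5390.2 CPM. None of the 6 core assembly genes measured passed for both shRNAs (0 at an unadjusted p under 0.05 by edgeR, and 0 called by DESeq2). Pomp, the core maturation factor, was at 112.2, 90.1 and 78.3 CPM in shCtr, 123, 113 and 134 CPM in shOSGEP#1 and 97.5 and 73.8 CPM in shOSGEP#2 (0.09 ± 0.16, adjusted p = 0.736).

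The catalytic subunits of the immunoproteasome, which interferon induces, were scarce. Psmb8 had 0, 0 and 1 counts in shCtr, 0, 0 and 0 in shOSGEP#1 and 4 and 0 in shOSGEP#2, and Psmb11, the thymus subunit, was also too low to be tested. Psmb9 was at 1.76, 2.79 and 2.80 CPM in shCtr, 1.62, 1.43 and 0.814 CPM in shOSGEP#1 and 6.01 and 7.17 CPM in shOSGEP#2, with both shOSGEP#2 libraries above all others. It differed between the shRNAs (2.26 ± 0.50, adjusted p = 0.00813), while neither shRNA passed the test against shCtr (-0.93 ± 0.45 and 1.33 ± 0.49). Psmb10 was at 9.87, 11.3 and 14.0 CPM in shCtr, 16.5, 13.2 and 13.9 CPM in shOSGEP#1 and 15.6 and 20.8 CPM in shOSGEP#2 (0.41 ± 0.20, adjusted p = 0.166).

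Of 10 enzymes and shuttle factors bound to the proteasome, 1 rose and 1 fell for both shRNAs by edgeR, and DESeq2 called 4 (Rad23b, Ube3c, Ubqln2 and Zfand5). Of all genes, edgeR called 5.04% higher and 4.27% lower, and DESeq2 called 19.05% in either direction. Ube3c, a ubiquitin ligase that extends chains on the proteasome, was at 90.3, 110.3 and 103 CPM in shCtr, 226, 216 and 235 CPM in shOSGEP#1 and 209 and 211 CPM in shOSGEP#2. All shOSGEP libraries were above all shCtr libraries, with a log2 fold change of 1.05 ± 0.12 (adjusted p = 0.000416). Zfand5, a stress-induced activator of the proteasome, was at 209.7, 239 and 223 CPM in shCtr, 148, 151 and 168 CPM in shOSGEP#1 and 114 and 137 CPM in shOSGEP#2 and fell (-0.73 ± 0.12, adjusted p = 0.00217). For both of these genes the groups did not overlap. Usp14, a deubiquitinase on the base, was at 147, 186 and 156 CPM in shCtr, 117, 129.8 and 118 CPM in shOSGEP#1 and 120.4 and 152 CPM in shOSGEP#2 (-0.40 ± 0.13, adjusted p = 0.049) and did not pass.

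Among 8 genes of ubiquitin and of the p97 segregase, which extracts proteins for degradation, 2 fell and 1 rose for both shRNAs by edgeR, and DESeq2 called 4 (Faf2, Nploc4, Ubxn4 and Ufd1), against the same shares of all genes. Nploc4 and Ufd1 encode the p97 adaptor pair. Nploc4 was at 583, 582 and 420.3 CPM in shCtr, 315, 313 and 233 CPM in shOSGEP#1 and 389 and 310.3 CPM in shOSGEP#2 (-0.79 ± 0.17, adjusted p = 0.00752). Ufd1 was at 90.5, 90.5 and 76.7 CPM in shCtr, 37.0, 37.9 and 42.6 CPM in shOSGEP#1 and 68.4 and 71.4 CPM in shOSGEP#2 (-0.77 ± 0.12, adjusted p = 0.00215), lowest in shOSGEP#1, and the shRNAs differed (0.75 ± 0.15, adjusted p = 0.00587). Ubxn4, a p97 anchor in the endoplasmic reticulum, was at 199, 148 and 126 CPM in shCtr, 77.7, 66.6 and 65.8 CPM in shOSGEP#1 and 174 and 164 CPM in shOSGEP#2. It fell under shOSGEP#1 (-1.19 ± 0.18, adjusted p = 0.00131) and had 0.00 ± 0.19 under shOSGEP#2. Faf2, another p97 adaptor of this list, singled out after its values were seen, was the gene that rose. It was at 45.3, 49.3 and 46.1 CPM in shCtr, 69.0, 76.1 and 111 CPM in shOSGEP#1 and 77.6 and 83.7 CPM in shOSGEP#2 (0.77 ± 0.17 for both shRNAs, adjusted p = 0.00872). The ubiquitin genes Ubb (-0.47 ± 0.15) and Rps27a (-0.48 ± 0.14) and Vcp, which encodes p97 itself (-0.36 ± 0.13), did not pass the test.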

How the data were processed

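RNA bound to FLAG-RIG-I was sequenced in 9 libraries. The authors used Trim Galore, STAR and Salmon, and DESeq2 for their tests. The deposited counts are whole numbers per gene, neither normalised nor pooled. From these counts, CPM were computed by library total. Genes were tested with edgeR 4.0.16 (TMM, filterByExpr, quasi-likelihood test, 1 coefficient per group) in 8 libraries, with Benjamini-Hochberg adjustment over 12744 genes and a threshold of 0.01. Both shRNAs means the average of their coefficients. DESeq2 1.42.0, voom of limma 3.58.1, other scalings and filters, all 9 libraries, a replicate block and leaving out each library were alternatives. Tests were checked on simulated data. Replicate libraries differed beyond sampling noise. Intervals and floors (3 counts) cover counting error only. GENCODE (GRCm38) names were matched by identifier, 111 of 22396 without a match. Members and lists were chosen with earlier results of these data known. Values in every library are given for members past the threshold, the highest member by mean shCtr CPM of each group, catalytic subunits, copies and non-subunits, and, from the lists of genes that act with the proteasome, up to 8 past the threshold and 8 others. Further genes are given by log2 fold change.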

Additional observations from a re-analysis of the deposited data

Results flagged for a closer look

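By edgeR 0 of the 41 tested members differed between the shRNAs past the threshold, against 10.8% of all genes. Of the 4 NRF1 pathway genes, 1 was higher in shOSGEP#2 and 1 lower. Also higher in it were 1 of the 2 tested catalytic subunits of the immunoproteasome and 2 of the 8 genes of ubiquitin and p97. The lists of subunits without a Psm symbol, core assembly genes and proteasome-bound factors held 0. The members were not tested against these lists. Between the shRNAs DESeq2 called Psma1, Psmd9 and Psmd10 (7.32% of the members), against 10.1% of all genes called lower and 20.9% in either direction. With the replicate number as a block, edgeR called Psmd10 (2.44%), against 4.79% of all genes called lower. The log2 difference of shOSGEP#2 from shOSGEP#1 was 1.59 for Nfe2l1, 2.26 for Psmb9, 1.19 for Ubxn4 and 0.75 for Ufd1, all higher in shOSGEP#2, and -0.85 for Nfe2l2, lower in it. Of the melanocyte markers, Dct (-2.38), Pmel (-1.97), Mlana (-1.47) and Sox10 (-1.04) were lower in shOSGEP#2 than in shOSGEP#1. Each of these passed the edgeR test of the difference itself.

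The shallow shOSGEP#2 replicate 2, outside the fit, held genes whose CPM had a 95% Poisson interval wholly above the highest shCtr library. Among the members these were Psmb2 (151 CPM), Psmb5 (399 CPM), Psmc5 (1116 CPM) and Psmd3 (518 CPM). Outside the members they were Sem1 (5390 CPM), Rad23b (2480 CPM), Sox10 (1090 CPM), Nfe2l1 (446 CPM), Ubxn4 (251 CPM) and Ddi2 (200.4 CPM). The others outside the members were Ubqln2 (142 CPM), Faf2 (121 CPM), Psmg1 (104 CPM), Psmg4 (94.9 CPM) and Psmb10 (52.7 CPM). The intervals cover counting error only, and the depth of this library was not tested as a source of these values.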

How the results depend on the processing

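The median log2 fold change of the members stayed below 0 in all 4 comparisons under every alternative run, while the counts of called members (3 for shOSGEP#1, 2 for shOSGEP#2, 9 for both shRNAs, 0 for shOSGEP#2 against shOSGEP#1) moved with several. The last moved only with DESeq2 on 8 libraries, the replicate block and an adjusted p under 0.05. Relative to the median of all genes, the median of the members stayed below 0 in the comparisons with shCtr, while for shOSGEP#2 against shOSGEP#1 it went from -0.07 to -0.0035 with voom and 0.03 without shOSGEP#2 replicate 1, and with library totals alone the median itself was -0.03. No member was called higher in any fit. With DESeq2 on 8 libraries the counts were 9, 9, 10 and 3, where 9.20%, 8.53%, 8.32% and 10.1% of all genes were called lower and 19.96%, 19.4%, 19.05% and 20.9% in either direction. With all 9 libraries they were 0 in each comparison by edgeR (1, 2, 2 and 1 members at an unadjusted p under 0.05, against 620, 1240, 817 and 1325 of 12337 genes), 0, 1, 0 and 0 by DESeq2 (0.408%, 0.845%, 0.458% and 1.38% of all genes lower), and 15, 2, 11 and 0 by voom with sample weights (13.1%, 2.54%, 7.42% and 2.54% lower and 26.9%, 8.20%, 16.8% and 7.56% in either direction). There the medians by edgeR were -0.87 for shOSGEP#2, -0.56 for both and -0.51 for shOSGEP#2 against shOSGEP#1, and by DESeq2 -0.92, -0.58 and -0.56. The median of all genes moved as well, to -0.37 for shOSGEP#2 by edgeR, so that relative to all genes the members were at -0.50 for shOSGEP#2 and -0.38 for both. The edgeR fit also tested fewer genes, and its common dispersion went from 0.0692 to 0.420 with the shallow library. Without a filter the counts for the comparisons with shCtr were 6, 4 and 10 (5.29%, 4.38% and 4.98% of all genes lower), and with only the groups compared 4 for shOSGEP#1 and 1 for shOSGEP#2 (6.12% and 2.93%). For both shRNAs, RLE scaling gave 8, Psmf1 losing its call, and library totals alone 4, with Psma5, Psmb5, Psmd7, Psmd14 and Psmf1 losing theirs (4.15% and 3.51% of all genes lower). At an adjusted p under 0.05 the counts were 10, 11, 11 and 6 (10.5%, 9.64%, 10.2% and 11.2% lower). The cause of these changes was not tested.

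Leaving out 1 library at a time, the calls ranged from 0 to 4 for shOSGEP#1, 0 to 3 for shOSGEP#2, 0 to 7 for both and 0 to 0 between the shRNAs, with fewer samples in each fit and 1.46% to 5.31%, 1.57% to 4.93%, 0.878% to 5.40% and 1.96% to 6.01% of all genes called lower, and the medians from -0.44 to -0.24, -0.53 to -0.33, -0.46 to -0.25 and -0.20 to -0.08. With 1 library left in shOSGEP#2, it is assumed to vary like the other groups.

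The libraries share replicate numbers between groups. Of the 7 pairs with the same number, 3 had a correlation of deviations above 0.1 (range -0.0034 to 0.18, median 0.085, against a median of -0.039 for other pairs), and not every library correlated best with its own number. Deviations from a group mean are tied within the group, as exact mirror images in shOSGEP#2, so these values cannot decide whether the numbers are pairs. In the main fit the numbers were not taken as pairs. With the replicate number as a block, 4 members were called for shOSGEP#1, 4 for shOSGEP#2, 7 for both and 1, Psmd10, between the shRNAs (5.25%, 4.06%, 4.85% and 4.79% of all genes lower). For both shRNAs, Psma5, Psmb5 and Psmd14 lost their call with this block and Psma4 gained one.

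Psmd13, at -0.0021 for both shRNAs, was positive with DESeq2, RLE, library totals, a filter of 10 counts in every library and 3 of the fits with a library left out.

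Of 812 values of single named genes under the alternatives, 801 kept their sign. The 812 include values at an adjusted p under 0.05, where only the threshold changed and the sign could not. The 11 that changed sign, all for both shRNAs and for genes not called, were of Psmc5 (0.21 by edgeR and 0.25 by DESeq2 with 9 libraries), Nfe2l2 (-0.17 and -0.18 in the same fits), Pomp (-0.20 and -0.21 there, -0.043 to 0.24 over left-out libraries) and Psmb7 (0.011 with library totals, -0.16 to 0.13 over left-out libraries). Psmd13 and Psme1, the latter positive without shCtr replicate 1, were not among the genes counted.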
